A study of Mus musculus with 12 samples.

Results

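The cells described here carry the deposited name Oligodendrocytes [16-P], one of 21 cell type names given to single cells of the mouse prefrontal cortex at birth (postnatal day 0). They numbered 1202 of 36263 cells and were chosen by that name alone. They are compared with all other cells and between 3 genotypes of Myt1l, a zinc finger transcription factor of neurons. HET mice carried 1 copy of a frameshift deletion made with CRISPR/Cas9 in zygotes, HOM mice carried it on both copies, and WT mice carried none. No further allele or treatment was given, and the mutation was in the germ line, so it was present in every cell of the mutant animals. Cells of 2 animals per genotype were fixed in methanol, pooled and captured in 1 droplet library, which was read from the 5′ end of transcripts. The 12 deposited samples are 4 runs of each of the 3 libraries and were not taken as replicates. No difference between genotypes below has a replicate check, and no p-value is given.

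Levels are the deposited depth-corrected values of a gene, summed over the cells of a library, divided by the sum over all genes and multiplied by 1000000 (depth-corrected counts per 1000000, CPM). Ratios are the log2 of 2 such levels. The chosen cells had a median of 1382.5 molecules in HET, 2260 in HOM and 1282 in WT, while all other cells had 1093, 1307 and 1040. Their median mitochondrial share was 4.82% in HET, 3.41% in HOM and 4.19% in WT. Xist, the RNA of the inactive X chromosome, was above 0 in none of the chosen HET and HOM cells and in 27.0% of those of WT, so sex and genotype cannot be told apart. A legend of the study assigns the cell numbers to the genotypes in another order, and the genotype names used here are those of the deposited cell table. Between 199 and 240 cell barcodes were shared by any 2 libraries over all cells, and none among the chosen cells.

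Oligodendrocytes wrap axons in myelin. They arise from precursor cells, which divide, spread through the brain before and after birth, and then pass through a committed stage before they make myelin. Olig1 and Olig2 are basic helix-loop-helix factors that specify the lineage, Sox10 is a factor of all its stages, and Pdgfra encodes the receptor through which platelet-derived growth factor drives the division of precursors. Myt1l has 2 relatives, Myt1, which is known from oligodendrocyte precursors as well as neurons, and St18. Proteins of this family bind a short motif with the core AAAGTT.

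The start regions of 4 genes on which the description turns are shown because the mutated factor belongs to a family with a known motif. They comprise Pdgfra and Cspg4 of the precursor surface, the lineage factor Olig2, and Myt1 itself. Each runs from 250 bases before the RefSeq start to the 50th base of the transcript, from RefSeq sequences of GRCm38.p6 (mm10), and capitals mark AAAGTT or its reverse complement AACTTT.
Pdgfra: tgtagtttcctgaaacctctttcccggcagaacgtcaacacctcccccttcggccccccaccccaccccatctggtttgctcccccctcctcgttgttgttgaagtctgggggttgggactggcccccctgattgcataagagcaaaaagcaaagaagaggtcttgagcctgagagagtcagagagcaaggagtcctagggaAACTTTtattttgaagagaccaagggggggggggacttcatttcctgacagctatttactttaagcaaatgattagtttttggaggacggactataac
Cspg4: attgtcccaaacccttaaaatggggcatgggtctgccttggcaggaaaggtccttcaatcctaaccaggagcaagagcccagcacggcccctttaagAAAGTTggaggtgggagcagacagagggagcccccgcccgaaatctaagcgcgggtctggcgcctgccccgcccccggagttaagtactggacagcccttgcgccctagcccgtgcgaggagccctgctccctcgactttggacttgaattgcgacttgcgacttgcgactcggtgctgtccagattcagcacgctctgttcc
Olig2: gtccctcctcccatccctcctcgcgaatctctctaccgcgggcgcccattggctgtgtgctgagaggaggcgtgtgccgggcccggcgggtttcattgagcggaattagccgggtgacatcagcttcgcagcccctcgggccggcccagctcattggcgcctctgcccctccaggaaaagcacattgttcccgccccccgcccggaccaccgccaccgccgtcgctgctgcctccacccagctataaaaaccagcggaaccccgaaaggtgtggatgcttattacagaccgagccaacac
Myt1: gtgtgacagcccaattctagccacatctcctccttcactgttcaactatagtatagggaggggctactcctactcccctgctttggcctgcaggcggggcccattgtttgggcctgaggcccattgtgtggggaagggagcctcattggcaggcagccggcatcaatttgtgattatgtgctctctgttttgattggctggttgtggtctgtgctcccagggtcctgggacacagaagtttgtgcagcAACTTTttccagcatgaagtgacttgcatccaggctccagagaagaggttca
The Pdgfra region (chr5:75152001-75152300, plus strand) held the motif once, on the opposite strand, from position -48 relative to the RefSeq start. The Cspg4 region (chr9:56864854-56865153, plus strand) held it once on the strand of the gene, from position -153. In the Myt1 region (chr2:181763082-181763381, plus strand) the motif lay on the opposite strand from position -2, and the Olig2 region (chr16:91225300-91225599, plus strand) held none. Both strands were searched. Of 32851 such regions in the RefSeq table, 14.1% held the motif. Among the 26 listed precursor genes, 20 had an entry, and 4 of their 24 regions (16.7%) held it, those of Cspg4, Luzp2, Pcdh15 and Pdgfra. Of the 20 genes highest against all other cells, which were chosen by their levels, 12 had an entry, and 5 of their 13 regions (38.5%) held it, those of Cspg4, Pcdh15, Pdgfra, Rasl11a and Shc4. A match is a stretch of letters and not a binding site, and neither share was tested. Olig1, Sox10, C1ql1 and Bcas1 had no entry. Gene spans given below come from the GENCODE M21 annotation of mm10, whose starts for Pdgfra, Cspg4 and Olig2 differ from those of RefSeq.

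All 4 markers of the lineage were far above the other cells in each library, so the deposited name matched its markers. Pdgfra (ENSMUSG00000029231.15, mm10 chromosome 5, 75152292 to 75198215, plus strand, protein-coding) stood at 939 CPM in HET, 1164 in HOM and 1193 in WT members of the group, against 10.2, 14.8 and 12.2 in other cells of the same libraries. Sox10 (ENSMUSG00000033006.10, chromosome 15, 79154908 to 79165240, minus strand) stood at 410, 491 and 477 CPM, against 4.24, 5.25 and 4.37 in other cells. Both genes were thus close to absent elsewhere.

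Olig1 (ENSMUSG00000046160.6, chromosome 16, 91269772 to 91271933, plus strand) reached 3161 CPM in HET, 4122 in HOM and 3249 in WT, against 149, 221 and 118 in other cells. Its neighbour Olig2 (ENSMUSG00000039830.9, chromosome 16, 91225457 to 91228677, plus strand) reached 557, 581 and 784 CPM, against 27.7, 40.1 and 28.8. The other cells thus kept more of the Olig genes than of Pdgfra or Sox10, relative to the group. Olig1 was above 0 in 85.9% of HET, 92.5% of HOM and 87.6% of WT cells of the group, Pdgfra in 50.7%, 62.8% and 59.3%, Olig2 in 44.7%, 49.4% and 53.9%, and Sox10 in 38.1%, 45.0% and 42.3%. In LayerII-IV [1-P], neurons named for upper cortical layers, which should lack all 4 genes, Pdgfra was above 0 in 0.24% of HET, 0.48% of HOM and 0.58% of WT cells at a median depth of 1364.5, 1953 and 1047 molecules. Olig1 was above 0 in 2.59%, 3.54% and 2.12% of the same neurons.

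At least 3 of the markers together singled out the group better than any one of them, though they found fewer of its cells than Pdgfra alone. Of 4597 cells with Olig1, 1073 (23.3%) bore the name, and of 1621 cells with Olig2 585 (36.1%) did. Of 1067 cells with Pdgfra 697 (65.3%) bore it, and of 664 cells with Sox10 506 (76.2%). With at least 2 of the 4 genes above 0, 902 of 1669 cells (54.0%) were in the group. With at least 3 of the 4 genes above 0 there were 640 cells, of which 562 (87.8%, exact 95% interval 85.0 to 90.2%, counting error only) were in the group. The other 78 were mainly Ganglionic eminences [9-P] cells (54) and Astrocytes (immature) 2 [13-P] cells (10). Within the group 260 cells showed all 4 genes and 65 showed none.

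Outside the group Olig1 was most often seen in those same cell types. In Ganglionic eminences [9-P] it was above 0 in 39.0% of HET, 57.8% of HOM and 27.1% of WT cells, and in Astrocytes (immature) 2 [13-P] in 35.7%, 38.1% and 28.8%. Sox10 was above 0 in 2.81%, 6.52% and 1.11% of the eminence cells and in 0.43%, 0.51% and 1.00% of the astrocytes. The 2 types were therefore used as the nearest neighbours below.

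**Figure D1:**
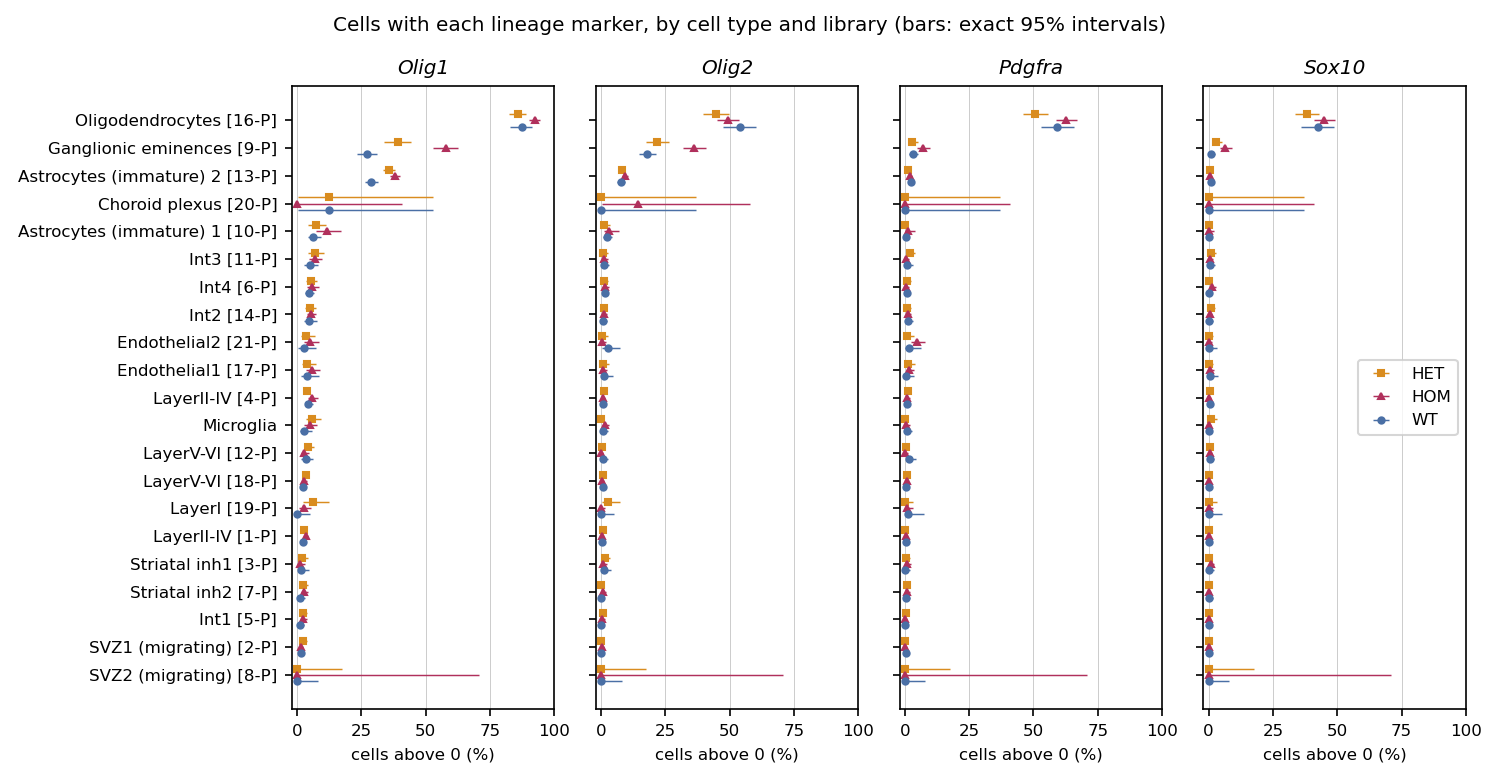
Share of cells above 0 for the 4 lineage markers (x axes, percent) in each of the 21 cell types (rows) and each library (squares HET, triangles HOM, circles WT), with exact 95% intervals for counting error. Pdgfra and Sox10 were above 0 in 38.1 to 62.8% of Oligodendrocytes [16-P] cells and in few cells elsewhere, whereas Olig1 was also seen in Ganglionic eminences [9-P] and Astrocytes (immature) 2 [13-P].

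Beyond the markers, 374 of 5157 genes with a summed value of at least 50 in the group (7.25%) were at least 2-fold higher than in the other cells of every library, and 130 (2.52%) were at least 2-fold lower. A cell group against the rest is a description, since the same genes shaped the names. The precursor list, chosen with earlier results of these data known, had 24 of 26 genes above that minimum, and 20 of the 24 were at least 2-fold higher. For the lineage transcription factors the count was 12 of 21, for glial progenitor genes 8 of 14, for committed precursor genes 6 of 11 and for myelin genes 2 of 2. Of the 20 highest genes by their smallest ratio over the 3 libraries, Sox10 (6.55), Pdgfra (6.30) and Gpr17 (6.18) led.

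Several of these leading genes encode surface proteins or adaptors of precursors. C1ql1, a secreted C1q-like protein, had a smallest log2 ratio of 5.86, Lhfpl3, a tetraspan-like membrane protein, 5.66, and Matn4, a matrilin of the extracellular matrix, 5.19. Shc4, an adaptor of receptor tyrosine kinases, had 5.10, Dll3, a Notch ligand family member, 4.27, and Cspg4, the NG2 proteoglycan, 4.15. Rasl11a, a small GTPase-like protein, had 4.22, as had Pcdh15, a protocadherin.

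Genes of the precursor stage were the most plentiful of the stage lists. Lhfpl3 stood at 1072 CPM in HET, 1278 in HOM and 934 in WT. Ptprz1, a receptor phosphatase of glial progenitors and precursors, stood at 2785, 3387 and 3112 CPM, and Serpine2, a secreted protease inhibitor, at 1795, 2214 and 1708. C1ql1 stood at 420, 633 and 358 CPM and Cspg4 at 163, 240 and 177. The 26 precursor genes summed to 11889 CPM in HET, 14564 in HOM and 12510 in WT, against 3029, 3023 and 2860 in other cells.

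Markers of committed precursors were present at a lower summed level. Bcas1, a protein of newly forming oligodendrocytes, stood at 203 CPM in HET, 234 in HOM and 232 in WT, and Gpr17, a receptor of the committed stage, at 80.4, 107 and 116. Itpr2, an inositol trisphosphate receptor that marks the same stage, stood at 107, 147 and 95.4 CPM, and Sirt2, a deacetylase of the lineage, at 179, 248 and 187. Against them, Enpp6, a choline phosphodiesterase of newly formed oligodendrocytes, had summed values of only 0, 1 and 0. Myrf, the factor that starts myelin gene expression, had summed values of 4 in HET, 4 in HOM and 1 in WT. The stage thus reached Gpr17 and Bcas1 but gave hardly any Enpp6 or Myrf.

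Myelin genes were near the floor. Mbp, myelin basic protein, stood at 26.1 CPM in HET, 31.1 in HOM and 20.5 in WT, and was above 0 in 3.16%, 3.10% and 2.49% of the cells, against 1.21%, 1.00% and 1.24% of other cells. Mobp, another myelin protein, had summed values of 0 in HET, 1 in HOM and 0 in WT. Mag, Mal and Aspa were at 0 in all 3 libraries. Mog and Opalin were not analysed here. The exceptions were Cnp, a phosphodiesterase that precursors already express, at 259, 245 and 194 CPM, and Gsn, an actin-severing protein, at 56.3, 91.9 and 51.1. By these levels the group held precursors and some committed precursors, and few if any myelinating cells.

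**Figure D2:**
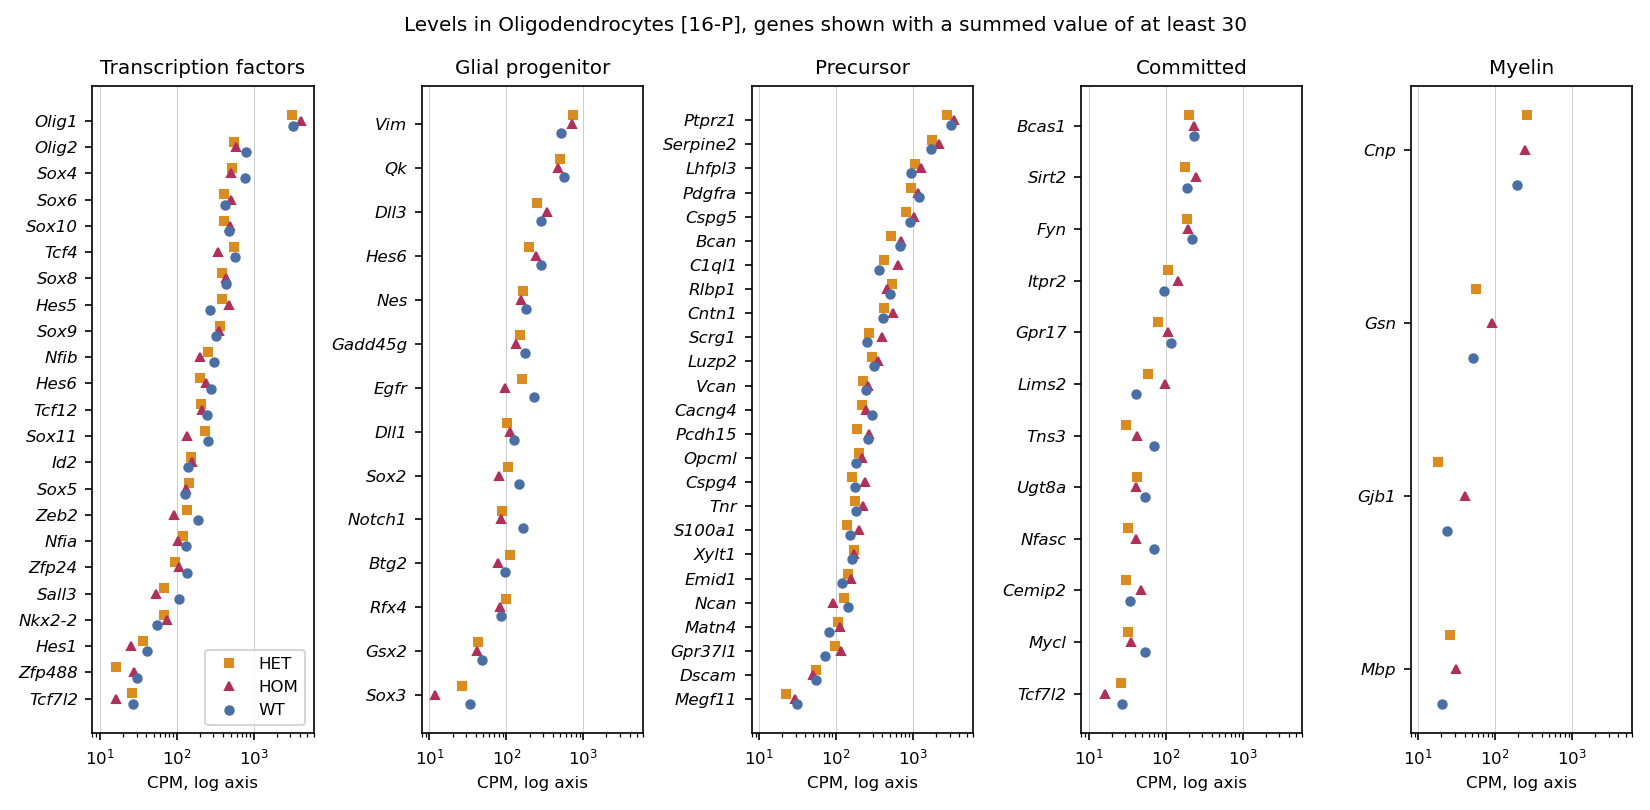
Levels (x axes, CPM, log scale) of the list genes reported here in Oligodendrocytes [16-P] with a summed value of at least 30 and above 0 in each library, by stage list (panels) and library (squares HET, triangles HOM, circles WT). Precursor genes reach 3387 CPM (Ptprz1 in HOM), while in the myelin panel only Cnp passes 100 CPM.

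The group was not uniform, and part of its spread followed sequencing depth. Of its cells 414 had under 1000 molecules and 356 had 4000 or more. Olig1 was above 0 in 76.6% of the first and 99.2% of the second, and Sox10 in 15.5% and 66.9%. Tubb3, a neuronal tubulin, ran the other way, with 36.7% of cells under 1000 molecules, 46.9% from 1000 to under 2000, 17.2% from 2000 to under 4000 and 17.7% at 4000 and above. The 18 pan-neuronal markers summed to 4413 CPM in HET, 3747 in HOM and 4016 in WT members, against 11251, 11092 and 9530 in other cells.

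The deposited Leiden clusters gave a similar division. Leiden cluster 11 held 1076 of the 1202 cells, at a median of 2099.5 molecules, and the other 126 had a median of 721.5. Pdgfra was above 0 in 63.1% of the 1076 cells and 14.3% of the 126, and Tubb3 in 26.7% and 55.6%. A further 198 cells of cluster 11 bore other names, 121 of them Astrocytes (immature) 2 [13-P] and 39 Ganglionic eminences [9-P], and Pdgfra was above 0 in 19.7% of these. The part that free RNA, doublets or the transferred names had in the shallow cells was not tested.

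Microglia and endothelial markers were low but not absent, while astrocyte and blood transcripts lay nearer to their levels in other cells. The 14 microglia genes summed to 78 CPM in HET, 96 in HOM and 92 in WT, against 440, 591 and 496 in other cells, with 3 of them at 0 in every library. The 10 endothelial genes summed to 90, 79 and 44 CPM, against 497, 603 and 372. Ptgds, a prostaglandin synthase of the meninges, stood at 24.1 CPM in HET, 125 in HOM and 17 in WT, and in other cells at 4.83, 654 and 5.80. The 7 red blood cell transcripts summed to 708, 934 and 1060 CPM, against 930, 1754 and 1191 in other cells. The 20 astrocyte and radial glia genes, Fabp7 among them, summed to 6816 CPM in HET, 7786 in HOM and 5931 in WT. In other cells, which include the astrocytes, they summed to 8404, 9189 and 7242. The part of all these transcripts in the differences below was not tested.

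Among the 560 cells with at least 2000 molecules, 99 had Egfr above 0. Egfr (ENSMUSG00000020122.16, chromosome 11, 16752203 to 16918158, plus strand) encodes the epidermal growth factor receptor of transit-amplifying progenitors and early glial precursors. In cells with Egfr, C1ql1 was above 0 in 18.2% (exact 95% interval 11.1 to 27.2%), against 63.3% of the 461 cells without it. Pdgfra was above 0 in 53.5% of cells with Egfr and 90.2% of cells without, and Gpr17 in 4.0% and 19.5%. The 2 sets were of like depth, at medians of 4465 and 4985 molecules, and Bcas1 differed little (35.4% and 37.1%). This view was chosen after the values were seen.

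The pattern recurred in each library. Pdgfra was above 0 in 54.1% of HET cells with Egfr and 88.6% of those without, in 18 of 36 and 89.6% in HOM, and in 57.7% and 95.8% in WT. C1ql1 gave 18.9% and 53.6% in HET, 22.2% and 72.0% in HOM, and 11.5% and 52.1% in WT. Cells with Gpr17 nearly all had Pdgfra (92 of 94, 97.9%, against 80.9% of cells without Gpr17). Of cells with Top2a, a topoisomerase of dividing cells, 33 of 35 had Pdgfra, against 83.0% of cells without Top2a. For Mki67, another gene of dividing cells, it was 38 of 44 (86.4%) against 83.5%. Egfr and Gpr17 thus lay at opposite ends of the co-detection with Pdgfra, and few cells had both (4 of 560).

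**Figure D3:**
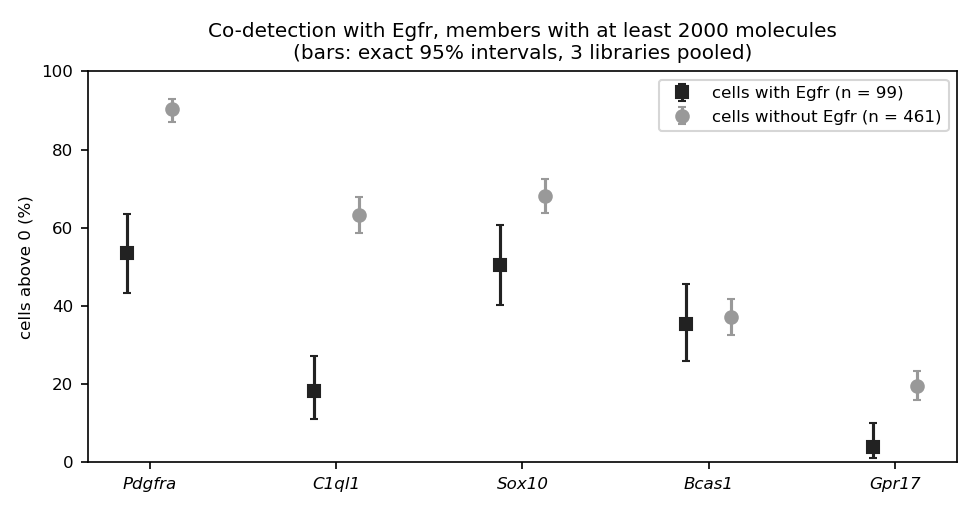
Share of cells above 0 (y axis, percent) for 5 genes among Oligodendrocytes [16-P] cells with at least 2000 molecules, in the 99 cells with Egfr (black squares) and the 461 without (grey circles), 3 libraries pooled, with exact 95% intervals for counting error. Pdgfra, C1ql1, Sox10 and Gpr17 are lower in cells with Egfr, and Bcas1 is at 35.4 and 37.1%.

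The immature astrocytes, which share Fabp7 and some Olig1 with the group, differed from it widely in single genes of both lineages. Relative to Astrocytes (immature) 2 [13-P], the smallest log2 ratio over the libraries was 5.26 for Pdgfra, 5.05 for Bcas1 and 4.64 for Myt1. Tnc, the matrix protein tenascin C, was the lowest, at 16.1 CPM in HET, 20.8 in HOM and 20.5 in WT members, against 1050, 923 and 992 in the astrocytes. Aldh1l1, a folate enzyme that marks astrocytes, stood at 10.1, 17.8 and 6.82 CPM, against 466, 461 and 495. Apoe, the lipid carrier of astrocytes, stood at 249, 236 and 249 CPM, against 3264, 3504.5 and 3636. Each of these 3 gaps was far larger than the differences between libraries.

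Relative to Ganglionic eminences [9-P], which share the Olig genes, the highest genes were Ptpre, a receptor phosphatase (4.38), and Omg, a surface protein of oligodendrocytes and neurons (4.21). Among the lowest were Dlx2, a homeobox factor of inhibitory neuron precursors, at 12.1, 11.9 and 23.9 CPM against 380, 337 and 412, and Dlx1, its neighbour, at 38.2, 28.2 and 47.7 against 597, 451 and 728. Prc1, which organises the spindle midzone in division, stood at 22.1, 26.7 and 17 CPM against 617, 494 and 502. The eminence cells were thus set apart by inhibitory neuron factors and by division genes. Egfr was lower in the group, at 159, 94.9 and 228 CPM against 321, 416 and 377 in the eminence cells.

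The group took a larger share of cells in both mutant libraries. It made up 412 of 12072 HET cells (3.41%, exact 95% interval 3.10 to 3.75%), 549 of 13688 HOM cells (4.01%, 3.69 to 4.35%) and 241 of 10503 WT cells (2.29%, 2.02 to 2.60%). These intervals did not overlap WT but cover counting error only. With at least 2000 molecules per cell the shares were 4.12% in HET, 4.98% in HOM and 2.65% in WT, and among macroglia alone 16.3%, 16.7% and 12.4%. Astrocytes (immature) 2 [13-P] also took more, with 15.4% in HET, 18.6% in HOM and 12.4% in WT, whereas Ganglionic eminences [9-P] took less, with 2.95%, 3.25% and 5.16%. With animals pooled and 1 library a genotype, dissection, sex and genotype cannot be told apart as sources of these shares.

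Between genotypes most genes of the group lay close to WT. For HET 3152 genes reached a summed value of 50 over both libraries, and 29 (0.92%) were at least 2-fold higher and 23 (0.73%) at least 2-fold lower than in WT. For HOM it was 49 (1.35%) and 82 (2.25%) of 3640. With trimmed mean scaling (TMM) the counts were 51 and 10 for HET and 116 and 34 for HOM, since the 2 scalings differ by a shift of -0.09 in HET and -0.19 in HOM. The HET and HOM ratios share the WT library. Ratios also followed transcript length. With genes cut into 4 equal bins, the median log2 ratio of the shortest to the longest was 0.15, 0.09, -0.05 and -0.17 for HET and 0.22, 0.10, -0.14 and -0.24 for HOM, and in other cells 0.17 and 0.22 for the shortest and -0.19 and -0.26 for the longest. The part of this slope in any one gene was not tested.

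Myt1l itself was low in the group. It stood at 76.4 CPM in HET, 108 in HOM and 34.1 in WT members, against 463, 736 and 379 in other cells, and was above 0 in 7.28%, 9.65% and 2.90% of them. The summed values behind these levels were 38, 73 and 10. The log2 ratio to WT was 1.67 in HOM. In HET the sum over both libraries lay under the minimum of 50 for a ratio, so the levels are given alone. The study states that the mutant transcript escapes decay, so this level is no check of the genotype. Myt1, the relative with a role in precursors, stood at 167, 205 and 191 CPM, with log2 ratios of -0.19 in HET and 0.10 in HOM. St18 was listed at 0 in all 3 libraries of the group.

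Of the lineage transcription factors, 21 of 28 were measured, and 5 were above WT in HET and 8 in HOM, where 52.1% and 48.9% of all genes were. Their median log2 ratio was -0.17 in HET and -0.22 in HOM (-0.07 and -0.03 with TMM), against 0.01 and -0.01 over all genes. For the same factors in other cells it was -0.09 and -0.12. With equal weight to the depth strata the medians in the group were -0.18 and -0.32, with 5 of 21 above WT in each mutant. In the bin of longest transcripts 31.8% of genes in HET and 27.3% in HOM were above WT. The part of transcript length in the factor ratios was not tested. Olig2 was below WT in each of 4 depth strata in both mutants, with overall log2 ratios of -0.49 and -0.43, and Sox10 was at -0.22 and 0.04. Sox4, a SoxC factor of newborn neural cells, stood at 529 CPM in HET, 508 in HOM and 767 in WT, and was likewise below WT in all 4 strata. In other cells it was also lower, with log2 ratios of -0.55 and -0.32 beside -0.54 and -0.59 in the group.

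Zeb2, a repressor that promotes oligodendrocyte maturation in mice, stood at 137 CPM in HET, 93.4 in HOM and 191 in WT, with log2 ratios of -0.48 and -1.03. Among cells with at least 2000 molecules it was above 0 in 16.4% of HET, 10.5% of HOM (7.2 to 14.6%) and 25.8% of WT cells (17.4 to 35.7%). Tcf4, a partner of basic helix-loop-helix factors, was above 0 in 54.2%, 35.7% (30.1 to 41.5%) and 67.0% (56.7 to 76.2%) of them. Both were also below WT in other cells, with log2 ratios in HOM of -0.56 for Zeb2 and -0.64 for Tcf4. The lower levels were thus also seen outside the group.

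Egfr was the lowest ranked gene in HOM, and its ratios in other cells lay near 0. It stood at 159 CPM in HET, 94.9 in HOM and 228 in WT members, with summed values of 79, 64 and 67. The log2 ratio was -0.52 in HET and -1.27 in HOM, and in other cells -0.01 and 0.17. It was below WT in all 4 depth strata in both mutants, and in the deepest stratum stood at 254 CPM in HET, 93.6 in HOM and 372 in WT. Among cells with at least 2000 molecules it was above 0 in 20.9% of HET (15.2 to 27.6%), 12.6% of HOM (9.0 to 17%) and 26.8% of WT cells (18.3 to 36.8%). The HOM and WT intervals did not overlap, but they cover counting error only, and Egfr had been picked by its rank in the same cells. The median depth of these cells was 4293 molecules in HET, 5331 in HOM and 4636 in WT. Of all other cells 3.98% in HET, 4.46% in HOM and 3.62% in WT had Egfr.

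Most listed genes of progenitors also stood lower in the mutant libraries. Sox2, a stem cell factor, stood at 105 CPM in HET, 80.0 in HOM and 147 in WT. Notch1, the receptor that holds progenitors undifferentiated, stood at 88.5, 84.5 and 164 CPM, with log2 ratios of -0.89 and -0.95 beside -0.32 and -0.35 in other cells. Of all genes 52.1% in HET and 48.9% in HOM were above WT, and in the bin of longest transcripts 31.8% and 27.3%. Of 13 glial progenitor genes measured, 3 in HET and 2 in HOM were above WT. The part of transcript length in these counts was not tested. Medians of the 13 were -0.23 and -0.26 (-0.14 and -0.07 with TMM) beside -0.32 and -0.01 in other cells. With equal weight to the depth strata they were -0.26 and -0.43. Vim, the intermediate filament vimentin, was an exception at 726, 720 and 518 CPM. Hes5, a Notch target, was another at 384, 479 and 269, and was also higher in other cells. Sox9, a factor of glial progenitors, was above 0 in 44.6% of HET, 41.3% of HOM and 34.0% of WT cells with at least 2000 molecules.

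Most precursor genes stood above WT in HOM, though not once depth was weighted. Of 24 measured, 19 were above WT in HOM and 11 of 23 were in HET, with medians of 0.23 and -0.04 beside 0.08 and 0.09 in other cells. With TMM the medians were 0.05 in HET and 0.42 in HOM, and with median-of-ratios scaling 0.04 and 0.43. Under both scalings 22 of 24 were above WT in HOM. With equal weight to the 4 depth strata the medians were -0.08 in HET and 0.05 in HOM. In HOM 13 of 24 were then above WT, near the 48.9% of all genes. C1ql1 had the largest log2 ratio of the list in HOM, 0.82, and was above WT in all 4 strata. Among cells with at least 2000 molecules it was above 0 in 46.3% of HET, 65.7% of HOM (59.9 to 71.2%) and 41.2% of WT cells (31.3 to 51.7%), whereas 0.63%, 0.82% and 0.56% of all other cells had it. Pdgfra was at -0.35 in HET and -0.04 in HOM, and Pcdh15 at -0.50 and 0.04.

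**Figure D4:**
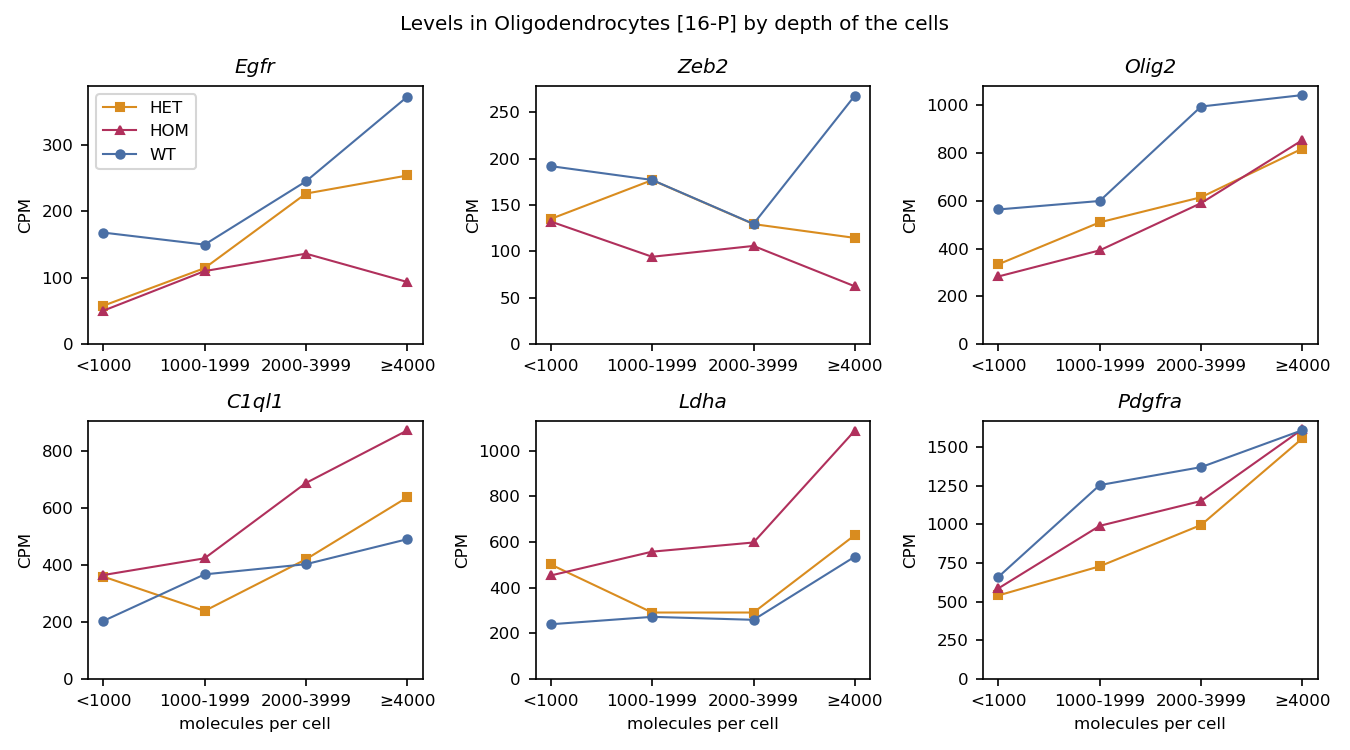
Levels (y axes, CPM, from 0) of 6 genes in Oligodendrocytes [16-P] within 4 ranges of molecules per cell (x axes), by library (squares HET, triangles HOM, circles WT). Egfr and Olig2 lie below WT in every range in both mutants and Zeb2 in HOM, while Zeb2 in HET is level with WT in both middle ranges. Ldha lies above WT in every range in both mutants, and C1ql1 does so in HOM.

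Receptors mostly stood below WT in HET, and matrix genes gave mixed differences. Of 8 receptors measured, 1 was above WT in HET and 2 in HOM, with medians of -0.43 and -0.19 (in HOM -0.003 with TMM and 0.01 with median-of-ratios scaling) beside -0.28 and 0.17 in other cells. In HET 7 of the 8 were below WT under each of the scalings tried, which, apart from the depth weighting, shift every gene alike. Over all genes 52.1% in HET and 48.9% in HOM were above WT, and in the bin of longest transcripts 31.8% and 27.3%. The part of transcript length in the receptor ratios was not tested. Ednrb, the endothelin receptor of glia, was above WT in both, at 621 and 646 against 498 CPM. Of 14 matrix genes 5 in HET and 9 in HOM were above WT. Timp4, an inhibitor of metalloproteinases and the only matrix gene at least 2-fold higher in HET, stood at 86.5, 69.7 and 37.5 CPM with small summed values. Of 6 NOTCH pathway genes in HET and 7 in HOM, 1 and 3 were above WT, with medians of -0.29 and -0.18 (0.006 in HOM with TMM). Glutamate and GABA receptors and channels had medians of -0.20 and -0.24, and Gria2, a subunit of AMPA glutamate receptors, was at 768, 741 and 760 CPM.

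Genes of DNA replication were higher in the HOM library and, by less, in HET. All 23 S phase genes together summed to 772 CPM in HET, 1113 in HOM and 695 in WT, while in other cells they summed to 711, 771 and 894. Among cells with at least 2000 molecules, 25.4% in HET (19.2 to 32.5%), 31.8% in HOM (26.5 to 37.6%) and 15.5% in WT (8.9 to 24.2%) had at least 2 S phase genes above 0, a share added after the values were seen. The corresponding share of all members was 18.9%, 24.6% and 17.4%, and of LayerII-IV [1-P] neurons, which do not divide, 7.48%, 10.4% and 8.81%. Mcm7, a subunit of the replicative helicase, stood at 84.4, 88.9 and 64.8 CPM, and Pcna, the polymerase clamp, at 84.4, 87.4 and 64.8. Of the genes measured, 4 of 4 in HET and 8 of 8 in HOM were above WT, where 52.1% and 48.9% of all genes were. A filter on the sum favours genes that are high in the larger HOM library.

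All 30 G2/M genes, which act in mitosis, summed to 1108 CPM in HET, 1441 in HOM and 1122 in WT, while in other cells they summed to 1166, 1231 and 1399. Of those measured, 3 of 4 in HET and 7 of 7 in HOM were above WT, where 52.1% and 48.9% of all genes were. The filter on the sum again favours genes that are high in the larger HOM library. The measured G2/M genes had medians of 0.22 and 0.30 beside -0.23 and -0.30 in other cells. With equal weight to the depth strata 4 of 7 were above WT in HOM. The shares of cells had overlapping intervals. At least 2 G2/M genes were above 0 in 14.1% of HET (10.9 to 17.8%), 17.1% of HOM (14.1 to 20.5%) and 14.5% of WT members (10.3 to 19.6%), and in 15.8%, 15.4% and 16.5% of those with at least 2000 molecules. Ganglionic eminences [9-P] gave 91.6%, 88.5% and 81.6%, and LayerII-IV [1-P] neurons 4.65%, 4.94% and 3.5%. Top2a stood at 46.2 CPM in HET, 111 in HOM and 78.4 in WT. Ccnd1, a cyclin that growth factors induce in precursors, stood at 253, 357 and 249, far above the 45.6, 52.7 and 44.2 of other cells.

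For the committed stage the intervals overlapped too. At least 2 committed precursor genes were above 0 in 33.01% of HET (28.5 to 37.8%), 41.3% of HOM (37.2 to 45.6%) and 36.1% of WT members (30.03 to 42.5%), against 6.96%, 7.88% and 8.92% of other cells. With at least 2000 molecules the shares were 53.7%, 57.0% and 54.6%. The median log2 ratio of the committed genes was -0.19 in HET over 5 genes and 0.01 in HOM over 7. In HOM the sign depended on the scaling. The HOM median was 0.20 with TMM and 0.22 with median-of-ratios scaling, with 6 of 7 genes above WT under each. It was -0.02 without technical genes and -0.11 with equal weight to the depth strata. Lims2, an adaptor of integrin signalling, was the member farthest above WT, at 58.3 CPM in HET, 97.8 in HOM and 40.9 in WT.

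Most glycolysis genes were higher in the mutants inside and outside the group. Of 12 measured, 9 in HET and 11 in HOM were above WT, with medians of 0.22 and 0.65 beside 0.39 and 0.67 in other cells. Over all genes 52.1% in HET and 48.9% in HOM were above WT, and in the bin of shortest transcripts 71.5% in each. The part of transcript length in the glycolysis ratios was not tested. Ldha, lactate dehydrogenase A, stood at 440 CPM in HET, 743 in HOM and 320 in WT, and was above 0 in 41.8%, 68.5% (62.8 to 73.9%) and 39.2% (29.4 to 49.6%) of cells with at least 2000 molecules. Its log2 ratio in HOM was 1.21, and 1.02 in other cells. Cholesterol synthesis genes, which precursors need for membrane growth, had medians of 0.31 and 0.33 beside 0.37 and 0.28, but in HET 7 of 13 were above WT, near the 52.1% of all genes, and in HOM 12 of 16. Egr1, an immediate early factor, stood at 444, 741 and 419 CPM, and in other cells at 54.1, 111 and 44.1. In HOM, Ldha and Egr1 were thus also higher outside the group.

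**Figure D5:**
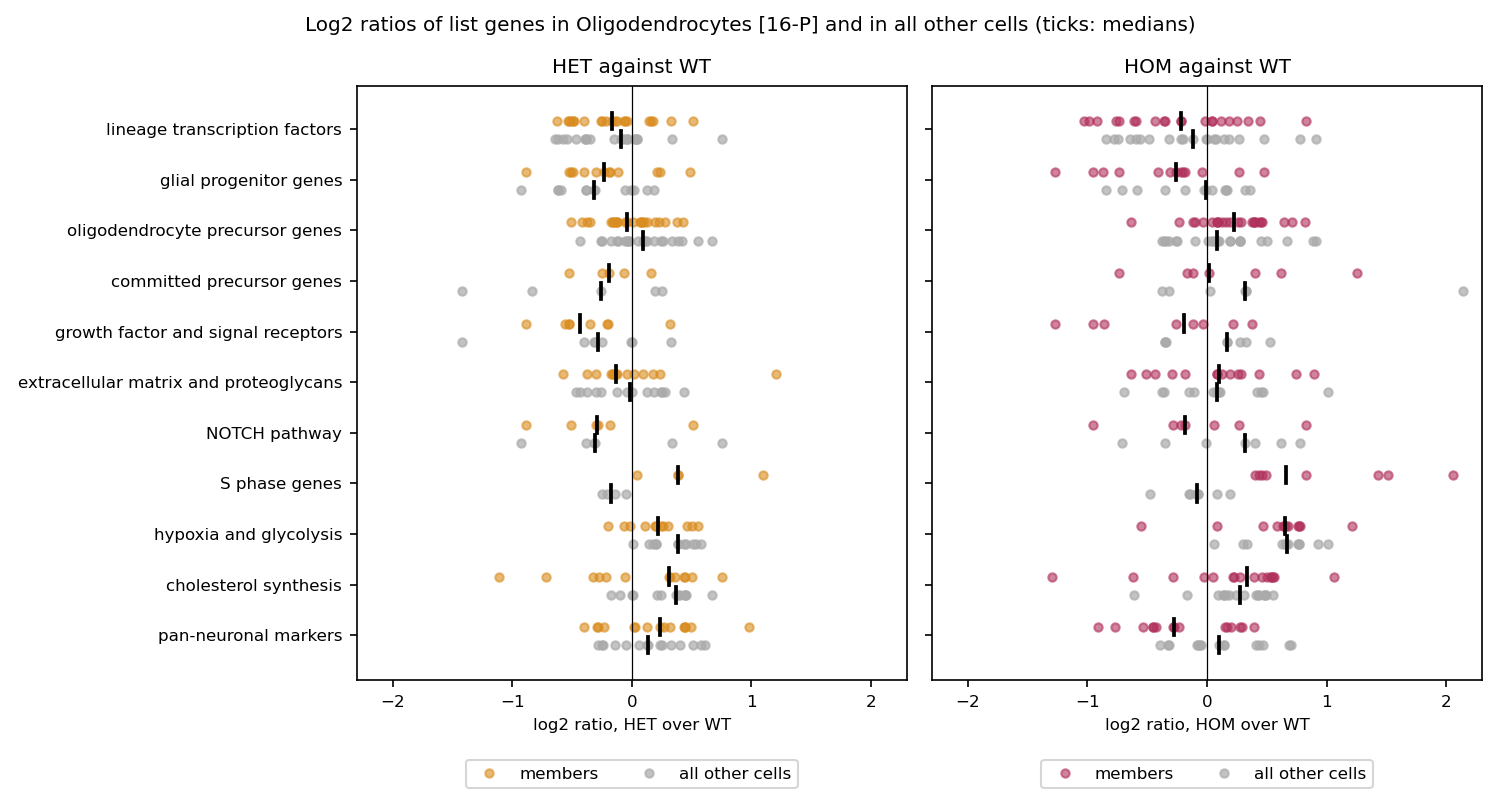
Log2 ratio to WT (x axes) of list genes with a summed value of at least 50 over both libraries, for HET (left) and HOM (right), in Oligodendrocytes [16-P] (coloured points) and in all other cells (grey points), with black ticks at the medians. Glycolysis has medians of 0.22 and 0.65 in the group and 0.39 and 0.67 in other cells, and the S phase medians of 0.38 and 0.66, beside -0.17 and -0.09, cover only the 4 and 8 of 23 genes that passed the minimum sum.

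The genes ranked highest or lowest by size included few with a known role in the lineage. In HET the highest was Mea1, named for male-enhanced antigen, at 203 CPM in HET and 75.0 in WT (log2 ratio 1.44). In HOM, Rasl11a stood at 519 against 215 CPM (1.27, and 0.61 in other cells) and was above WT in all 4 strata. Fos, an immediate early factor, was at 202 against 88.6, and Npas1, a factor of inhibitory neurons, at 123 against 57.95. Among the low ones were Tnrc6b, of the microRNA silencing machinery, at 97.8 against 228 CPM, and Pcdh9, a protocadherin, at 86.0 against 187. Dhx15, an RNA helicase of splicing, was lower by as much in other cells (-1.25) as in the group (-1.22).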

How the data were processed

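Single-cell 5′ RNA libraries of 3 genotypes, 1 per genotype, were aligned by the authors to mm10 with Cell Ranger 4.0.0 and filtered on detected genes and mitochondrial share with Seurat 4.0. Blood cells were removed, names were transferred from a reference with a probability, and microglia were named by markers. No step against doublets is named in the paper or labels. The deposited matrix (18879 genes, 36263 cells) was treated as a score, since its whole numbers are depth-corrected and add up to fewer units than the molecules in deep cells. The deposited cell table gives molecule counts per cell, the mitochondrial percent, and the name probability as a fraction. The authors' own comparison tables, which hold fold changes, p-values and detection shares, were not used.

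Values were summed over the cells of a library and divided by their total, with a minimum sum of 50 over both libraries for genotype ratios. Thinning to a fixed depth could not be done on such values, so shares are also given for cells with at least 2000 molecules. Intervals are exact binomial (95%) and cover counting error only. The steps were tested on simulated data. Python 3.11.15, numpy 2.4.6, pandas 2.3.3, scipy 1.17.1 and matplotlib 3.10.9 were used.

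Members and gene lists were chosen with earlier results of these data known. Genes named were the lineage markers, the Myt1 family, members of the lists, up to 4 per further list by size of ratio, and ranked genes: the 10 highest and 10 lowest per genotype ratio with a sum of at least 100, the 20 highest against other cells, and the 10 highest and lowest against each neighbouring type. Sex-linked, blood, ribosomal RNA-like and mitochondrial genes were left out of the ranks. The view by Egfr, the S phase share, equal weights for 4 ranges of depth, the 2000-molecule minimum for genes, lists, markers and classes, and the use of Leiden cluster 11 were chosen after seeing the data. Some genes that these rules name are not reported here.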

Additional observations from a re-analysis of the deposited data

How the results depend on the processing

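Of 842 values under alternative settings, 62 labelled as headline values and 10 others were marked as moved, with 1.5-fold as the limit. Marked as the same were 249 headline values and 521 others. No direction called at 2-fold or more turned, but only ratios of that size could turn. Shares, levels and counts could not, and marker ratios such as those below were large, so the lack of turned directions says little. The share of the group was 3.86% in HET, 4.84% in HOM and 2.84% in WT among cells with at least 1000 molecules, 4.12%, 4.98% and 2.65% with at least 2000, and 16.3%, 16.7% and 12.4% of astrocytes and oligodendrocytes together. The log2 ratio of members over other cells for Pdgfra was 7.18 in HET, 7.08 in HOM and 7.43 in WT with at least 1000 molecules and 7.61, 7.43 and 7.91 with at least 2000. For Sox10 it was 7.31 in HET and 7.73 in WT with at least 1000 molecules, 7.77 and 9.08 with at least 2000, and 7.28 in HET with a name probability of at least 0.9.

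The numbers of genes at least 2-fold apart depended most on the settings. In HET, beside 29 higher and 23 lower, there were 44 and 39 with means of per-cell values, 51 and 10 with TMM, 51 and 11 with median-of-ratios scaling, 222 and 248 with a minimum sum of 20, and 0 and 3 with a minimum of 200. With at least 1000 molecules 9 were higher, and with at least 2000 there were 9 higher and 13 lower. In HOM, beside 49 higher and 82 lower, there were 116 and 34 with TMM, 128 and 32 with median-of-ratios scaling, 227 and 447 with a minimum of 20, and 4 and 4 with a minimum of 200, and 50 were lower with at least 2000 molecules. In those deep cells 1 of the 29 and 6 of the 23 genes were kept in HET, and 10 of the 49 and 16 of the 82 in HOM, with 1417 and 2003 genes measured.

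At least 1 G2/M gene was above 0 in 35.7% of HET, 43.9% of HOM and 36.9% of WT members, and at least 3 in 8.50%, 11.7% and 9.96%. At least 1 committed precursor gene was above 0 in 63.3%, 70.5% and 68.5%, and at least 3 in 12.1%, 16.9% and 16.2%. The share with at least 2 was 46.8%, 53.5% and 51.0% with at least 1000 molecules, 53.7%, 57.0% and 54.6% with at least 2000, and 39.5% in HET and 46.4% in HOM with a name probability of at least 0.9. The cause of these differences was not tested.

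No paired analysis was possible because each genotype is 1 library. Depth limits the description, since a gene under the minimum sum of 50 entered no list median or count of genes, and absence of a gene in a shallow cell is not evidence that the cell lacks it.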

Other observations

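The WNT list summed to 1444 CPM in HET, 1349 in HOM and 1742 in WT members. Ribosomal RNA-like transcripts summed to 13960 CPM in HET, 13718 in HOM and 29149 in WT members, and to 14774, 14908 and 29467 in other cells. Y-linked transcripts were above 0 in 24.5% of HET, 17.5% of HOM and 7.47% of WT members. The part of these differences in the genotype comparisons was not tested.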
